A study of Homo sapiens with 18 samples.

Results

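The 33 genes described here carry glucose through glycolysis to lactate or into the pyruvate dehydrogenase complex. They comprise the glucose transporters SLC2A1 and SLC2A3, the glycolytic enzymes, the PFKFB family, the lactate dehydrogenases and lactate transporters, the 4 pyruvate dehydrogenase kinases, 3 subunits and 1 phosphatase of the pyruvate dehydrogenase complex, and PGM1. They were chosen by name for their place in the pathway, not by a measured value, though earlier results of these data were known. They make up 33 of the 33121 genes in the deposited count table. RNA was sequenced from RPE-1 cells, a human retinal pigment epithelial line immortalized with hTERT, in 6 groups of 3 libraries. The siRNAs were a control (siControl, whose library names carry siLuci), one that targets Mlx (siMlx) and one that targets MondoA (siMondoA). Cells with each siRNA were left untreated or were given doxorubicin (DXR), a DNA-damaging topoisomerase poison. The transfection lasted 2 days and DXR was then applied at 150 ng/ml for 3 days. All groups, controls included, carried an siRNA. The library names of untreated and DXR groups differ in a day tag (D0 and D5), so harvest day and DXR cannot be told apart. The labels do not say that the 3 libraries of a group came from separate cultures, so the p-values speak of the spread among these libraries, which may be technical.

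MondoA (gene MLXIP) is a transcription factor that senses glucose-6-phosphate and binds DNA as a dimer with Mlx, its obligate partner, which also pairs with other proteins. Its best known target is TXNIP, which restrains glucose uptake. Glycolysis turns glucose into pyruvate. Pyruvate is either reduced to lactate and exported, or oxidized by the pyruvate dehydrogenase complex, which the PDK kinases switch off and the PDP phosphatases switch on.

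Total counts per library ran from 15503423 to 29219280. The labels held up at the targeted genes: MLXIP was at 63.7 to 72.9 CPM (counts scaled to library size, here after TMM) in the untreated siControl libraries and at 3.34 to 4.57 CPM with siMondoA, and MLX was at 25.7 to 27.4 CPM with siControl and at 6.79 to 7.12 CPM with siMlx. MLX rose with siMondoA, to 47.2 to 52.1 CPM in untreated cells (log2 change 0.91, edgeR adjusted p = 5.26e-10), and also in DXR-treated cells (0.72, 5.72e-08). TXNIP fell by 3.46 on the log2 scale with siMondoA and by 2.59 with siMlx in untreated cells (edgeR adjusted p = 3.56e-08 and 3.61e-07). Of 12 retinal pigment epithelium markers, 10 stayed under 1 RPKM (reads scaled by gene length and library size) in every library, RPE65 included. OTX2 (4.13 to 10.9 RPKM) and MITF were expressed, as were KRT8, KRT18 and VIM, and CDH1 did not pass 0.0765 RPKM. Of 8 blood and endothelial markers 7 stayed under 1 RPKM and HBB had no count. The exception was CD68 (35.9 to 72.8 RPKM), and the summed list was at 56.7 to 72.5 RPKM in untreated siControl libraries and at 36.4 to 46.7 RPKM with siMlx. Of 8 fibroblast markers COL1A2, COL3A1 and LUM stayed under 1 RPKM, while THY1 was at 73.1 to 198 and COL1A1 at 12.5 to 57.6 RPKM. The summed fibroblast list moved with the groups: it was at 149 to 162 RPKM in untreated siControl libraries, 153 to 176 with siMlx and 112 to 120 with siMondoA, and with DXR at 229 to 246, 234 to 266 and 188 to 206 RPKM in the same order. The part of these markers in the results was not tested. The summed RN7SL1 and RN7SL2 RNA, a small cytoplasmic RNA that poly(A) selection should leave out, was at 11.4 to 30.1 CPM in the untreated siControl libraries and at 2.25 to 5.90 CPM in the other untreated libraries. With DXR it was at 2.44 to 12.5 CPM with siMlx, which reaches the untreated siControl range, and at 2.75 to 4.05 CPM in the other groups. Its part in the comparisons was not tested.

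Levels of the 33 genes spanned a wide range. In untreated siControl cells the deposited RPKM averaged 9125 for GAPDH, the dehydrogenase of mid glycolysis, 1186 for pyruvate kinase PKM, 964 for TPI1, 853 for ENO1 and 752 for LDHA (n = 3). At the other end stood PFKFB2 at 0.893 and the kinase PDK1 at 3.01 RPKM. ALDOC, the brain-type aldolase, had 110 counts over all 18 libraries, PDK3 had 43 and PDK4 had 2. These 3 genes did not pass the filter on low counts and were not tested. PDK4, the kinase that fasting and fat use induce in many tissues, had 1 count in replicate 1 of the siMlx DXR group and 1 in replicate 1 of the siMondoA DXR group. The other 4 groups had no PDK4 count, where 3 counts over a group would have been 0.0399 to 0.0551 CPM. PDK3 had 4, 8 and 8 counts in the siControl DXR libraries and at most 3 in any other library. The 33 genes together took 3.05% to 3.41% of the counts of each untreated library and 2.41% to 2.80% of each DXR library, so the untreated and DXR ranges did not overlap. GAPDH alone took 1.33% to 1.56% and 1.06% to 1.22%.

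With siMondoA in untreated cells, the glucose transporter SLC2A3 rose and phosphoglycerate mutase PGAM1 fell by about as much. The lactate transporter SLC16A1, enolase ENO2, PFKFB4 and the phosphatase PDP1 also fell, and SLC2A1, the muscle phosphofructokinase PFKM and PGM1 rose. Of the 30 genes tested, 5 were higher and 8 lower at an adjusted p under 0.05 in edgeR's quasi-likelihood test, where 46.6% of the 13676 genes tested in the whole table were called (23.3% higher and 23.3% lower). The share of called genes in the pathway was thus near the background of a comparison that moved much of the transcriptome. The median log2 change of the 30 genes was -0.06, and that of all genes tested was 0.02. In DXR-treated cells siMondoA called 2 genes higher and 12 lower, with 24.8% of all genes called (10.9% higher, 13.9% lower). Those 12 are 40% of the 30 genes, but the number was lower whenever a library of the 2 groups was left out. It was 7 without replicate 3 of the siMondoA DXR group. Of the 14 calls in this comparison, 7 were lost in 1 or more of the alternative settings. The 2 higher genes were SLC2A3 and the subunit gene PDHA1. PDHA1 was at 38.1, 39.6 and 40.0 CPM with siControl and at 42.7, 46.2 and 43.7 CPM with siMondoA. Its call (log2 change 0.17, adjusted p = 0.0265) was lost without replicate 1 or 2 of siControl DXR or replicate 2 of siMondoA DXR (adjusted p = 0.101, 0.0638 and 0.121), with no filter on low counts (0.165) and with the 2 groups fitted alone (0.0719), which leaves 1 higher gene.

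With siMlx in untreated cells the largest falls were those of PDK2, a kinase of the pyruvate dehydrogenase complex, to 33.9% of its siControl level, of PFKFB2 to 39.3%, of PFKM to 56.4% and of LDHA to 69.8%. SLC2A3, PFKFB3, PFKFB4 and hexokinase HK2 rose. In all, 12 of the 30 genes were higher and 9 lower (70% called), against 47.9% of all genes called (24.9% higher, 23% lower), and the median log2 changes were 0.02 for both the 30 genes and all genes. In DXR-treated cells 1 gene (SLC2A3) was higher and 7 were lower, against 30.2% of all genes called (14% higher, 16.2% lower). Upper-quartile scaling turned that split, from 46.2% to 56.2% of the called genes higher.

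DXR in siControl cells lowered ENO1 to 57.6%, the platelet-type phosphofructokinase PFKP to 67.6% and DLAT, the acetyltransferase subunit of pyruvate dehydrogenase, to 72.3% of the untreated level. It raised PFKFB2, PFKFB3, HK2 and PDK1. The count was 10 higher and 10 lower of 30, against 56.7% of all genes called (28.1% higher, 28.6% lower). The median log2 change was -0.03 for the 30 genes and -0.01 for all genes. Each of the 30 tested genes was called in at least 1 of these 5 comparisons, and SLC2A3 was called in all 5. Each comparison by itself called 24.8% to 56.7% of all genes tested, so a call in at least 1 does not set these genes apart. SLC2A3 was also the single gene of the 30 raised by both siRNAs in both conditions, and ENO2 the single one lowered by both in both. The shares of all genes called in several comparisons were not computed, so these counts describe single genes and not the pathway. In bulk RNA, a change in the share of cells that express a gene and a change in RNA per cell cannot be told apart.

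**Figure D1:**
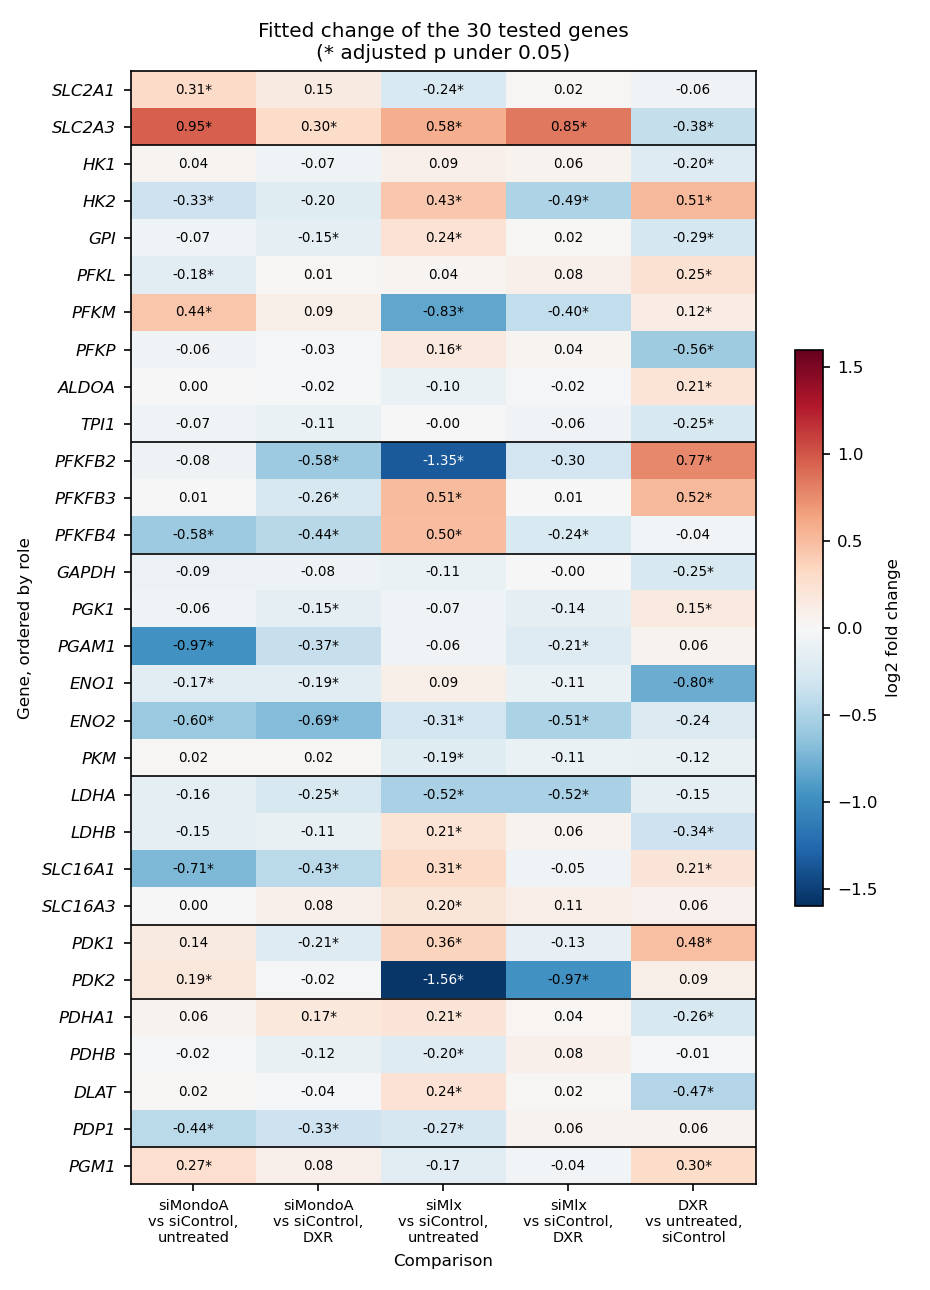
Fitted log2 fold change (colour and printed value) of the 30 tested genes, in rows by role, for 5 comparisons in columns; an asterisk marks an adjusted p under 0.05 in edgeR's quasi-likelihood test. SLC2A3 is red in the 4 siRNA columns and blue under DXR, ENO2 is blue in the 4 siRNA columns, and PDK2 is darkest with siMlx (-1.56 untreated, -0.97 with DXR).

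Glucose enters these cells through 2 transporters of the list, SLC2A1 (GLUT1) and SLC2A3 (GLUT3, chr12:7919230-7936275 on GRCh38, minus strand). SLC2A3 was at 109, 120.4 and 102 CPM in untreated siControl libraries, at 166, 167 and 159 CPM with siMlx and at 225, 217 and 199 CPM with siMondoA. All 6 knockdown libraries lay above all 3 controls. The log2 change was 0.95 ± 0.06 (SE; adjusted p = 4.01e-10) with siMondoA and 0.58 ± 0.06 (3.76e-07) with siMlx. After DXR the levels were 78.8, 84.7 and 90.5 CPM with siControl, 147, 154 and 157 CPM with siMlx, and 106, 102 and 104 CPM with siMondoA. The groups again did not overlap, but their order had turned: siMlx was now the highest. The changes were 0.85 ± 0.06 (6.45e-09) with siMlx and 0.30 ± 0.07 (0.00191) with siMondoA. Tested directly, siMondoA stood above siMlx by 0.38 in untreated cells (3.60e-05) and below it by 0.55 after DXR (log2 change -0.55, 1.10e-06). SLC2A3 has a close paralogue, SLC2A14, and reads that fit both could be split.

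SLC2A1, the more abundant transporter (223 RPKM against 28.8 RPKM for SLC2A3 in untreated siControl cells), moved less. It was at 766, 901 and 724 CPM with siControl, 992, 1086 and 887 CPM with siMondoA, and 688, 734 and 605 CPM with siMlx in untreated cells. Replicate 2 was the highest library of each of these groups, and the highest siControl library lay above the lowest siMondoA library. The log2 change was 0.31 ± 0.08 (adjusted p = 0.00514) with siMondoA and -0.24 ± 0.08 (0.0262) with siMlx. The siMlx call was lost without replicate 2 of untreated siControl (0.189), without replicate 3 of untreated siMlx (0.143) and with upper-quartile scaling (0.0625). After DXR the siControl libraries were at 775, 789 and 736 CPM, those with siMlx at 805, 766 and 762 CPM and those with siMondoA at 912, 833 and 802 CPM, and neither siRNA passed the test (0.02 with siMlx, adjusted p = 0.887; 0.15 with siMondoA, 0.229). DXR itself gave -0.06 in siControl cells (0.603).

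**Figure D2:**
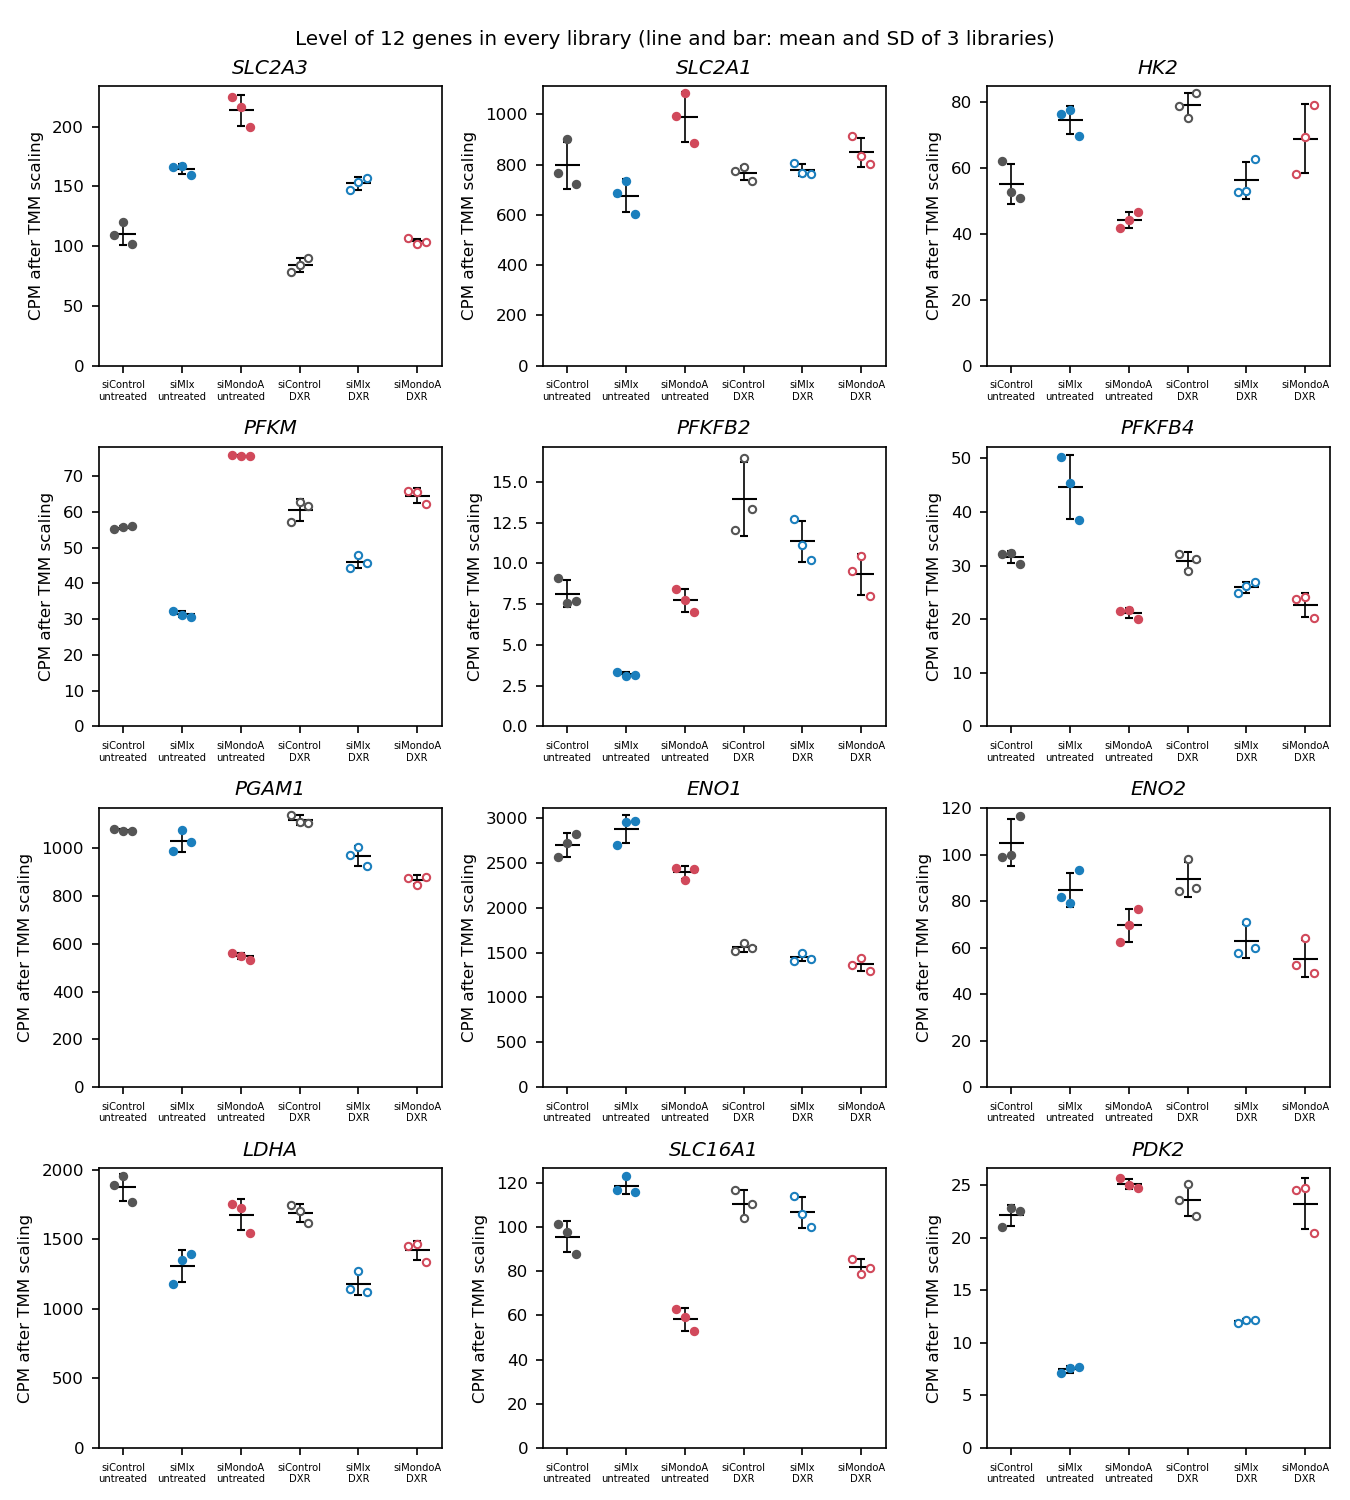
CPM after TMM scaling (linear axes from 0) of 12 genes in each of the 18 libraries; filled points are untreated and open points DXR-treated, with siControl grey, siMlx blue and siMondoA red, and lines with bars give the mean and SD of 3 libraries. PGAM1 is low in untreated siMondoA cells (534 to 560 CPM), PDK2 and PFKM are low with siMlx, and ENO1 is low in all 9 DXR libraries.

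The first step after uptake is phosphorylation by hexokinase. HK1, the housekeeping form, did not pass the test with either siRNA. HK2, the inducible form, was at 62.3, 52.9 and 50.9 CPM in untreated siControl cells, 76.5, 77.7 and 69.9 CPM with siMlx and 41.9, 44.2 and 46.6 CPM with siMondoA. It rose with siMlx (log2 change 0.43 ± 0.10, adjusted p = 0.00101) and fell with siMondoA (-0.33 ± 0.10, 0.00996), though the latter call was lost without replicate 1 of untreated siControl (-0.23, adjusted p = 0.0787). After DXR the libraries were at 79.1, 75.3 and 82.9 CPM with siControl, 52.9, 53.2 and 62.8 CPM with siMlx, and 58.3, 69.6 and 79.2 CPM with siMondoA. HK2 had thus risen with DXR in siControl cells (0.51 ± 0.10, 0.000137), and siMlx was now below the control (-0.49 ± 0.10, 0.000642). Of the siMondoA DXR libraries, replicate 3 lay within the control range and the other two below every control library, and their change of -0.20 (0.148) passed the test without replicate 3 of that group (-0.31, 0.0298).

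Phosphofructokinase commits the sugar to glycolysis, and its 3 genes went separate ways. PFKM, the muscle form (chr12:48105139-48146404, plus strand, overlapping SENP1 on the other strand), was at 55.2, 55.8 and 55.9 CPM with siControl, 32.2, 31.3 and 30.7 CPM with siMlx and 76.0, 75.6 and 75.6 CPM with siMondoA in untreated cells. The 3 groups were far apart relative to their spread, in opposite directions (log2 change -0.83 ± 0.05, adjusted p = 1.05e-10, with siMlx; 0.44 ± 0.05, 4.38e-07, with siMondoA). After DXR, siControl libraries were at 57.1, 62.9 and 61.7 CPM, siMlx at 44.4, 48.0 and 45.7 CPM and siMondoA at 65.9, 65.5 and 62.1 CPM. The fall with siMlx was smaller there (-0.40 ± 0.05, 6.35e-06) and siMondoA overlapped the control (0.09, 0.206). PFKP, the most abundant form, fell with DXR, from 369.5, 388 and 377 CPM in untreated to 261, 249.8 and 256 CPM in DXR-treated siControl cells (-0.56 ± 0.05, 5.76e-09). PFKL, the liver form, rose with DXR (0.25 ± 0.05, 0.000167), and GPI, the isomerase that supplies the substrate, fell (-0.29 ± 0.05, 3.83e-05).

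The PFKFB enzymes make and break fructose 2,6-bisphosphate, the strongest activator of phosphofructokinase. Of their genes, PFKFB2 overlaps the gene YOD1 on the other strand and PFKFB4 overlaps UCN2 on the same strand. PFKFB2 (chr1:207034366-207081024, plus strand) was at 9.10, 7.59 and 7.72 CPM in untreated siControl cells, 3.37, 3.08 and 3.18 CPM with siMlx and 8.40, 7.76 and 7.01 CPM with siMondoA. Every untreated siMlx library was below every library of the other 5 groups (log2 change -1.35 ± 0.15, adjusted p = 3.99e-07), and siMondoA overlapped the control (-0.08, 0.664). After DXR the levels were 12.1, 16.5 and 13.3 CPM with siControl, 12.7, 11.1 and 10.2 CPM with siMlx, and 9.54, 10.4 and 7.99 CPM with siMondoA. PFKFB2 rose with DXR in siControl cells (0.77 ± 0.13, 3.08e-05). With siMondoA it was then below the control (-0.58 ± 0.13, 0.00207), and siMlx gave -0.30 (0.0781, and 0.047 with the replicate number as a block). The siRNA groups compared directly did not pass the test there (-0.28, 0.098). Within siMlx cells, DXR raised PFKFB2 to 353% of the untreated level (1.82 ± 0.15, 3.05e-09), the largest change of the 30 genes in any comparison made.

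PFKFB3, the most kinase-active form, was at 30.8, 27.6 and 26.0 CPM in untreated siControl cells, 41.3, 42.8 and 36.4 CPM with siMlx and 27.0, 31.5 and 26.4 CPM with siMondoA. It rose with siMlx (0.51 ± 0.08, adjusted p = 2.64e-05) and overlapped the control with siMondoA (0.01, 0.93). The DXR libraries were at 39.9, 40.8 and 40.8 CPM with siControl, 42.1, 39.0 and 41.0 CPM with siMlx and 36.3, 32.3 and 33.2 CPM with siMondoA. DXR thus brought siControl cells to about the level that untreated siMlx cells already had (0.52 ± 0.08, 1.44e-05), and siMlx added 0.01 (0.961). The fall with siMondoA after DXR (-0.26 ± 0.08, 0.0238) was lost without replicate 2 or 3 of siControl DXR (0.0584 and 0.0627) or replicate 2 or 3 of siMondoA DXR (0.0944 and 0.0712).

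PFKFB4, a hypoxia-inducible form, was at 32.2, 32.3 and 30.3 CPM in untreated siControl cells, 50.3, 45.3 and 38.5 CPM with siMlx and 21.6, 21.7 and 20.1 CPM with siMondoA. No group overlapped another (0.50 ± 0.08, adjusted p = 6.57e-05, with siMlx; -0.58 ± 0.09, 2.03e-05, with siMondoA). After DXR it was at 32.1, 28.9 and 31.3 CPM with siControl, 24.9, 26.2 and 26.9 CPM with siMlx and 23.9, 24.1 and 20.2 CPM with siMondoA. Both siRNA groups were now below the control. The siMondoA fall was -0.44 ± 0.09 (0.00105). The siMlx fall (-0.24 ± 0.09, 0.0428) was lost with upper-quartile scaling (0.0967) and without any of 5 libraries, namely siControl DXR replicates 1 and 3 and siMlx DXR replicates 1, 2 and 3 (0.0612 to 0.161).

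Among the later steps of glycolysis, PGAM1, the mutase that moves the phosphate of 3-phosphoglycerate (chr10:97426160-97433441, plus strand), fell with siMondoA. Its untreated libraries were at 1082, 1073 and 1071 CPM with siControl, 989, 1078 and 1025 CPM with siMlx and 559.7, 549.6 and 534 CPM with siMondoA. The siMondoA libraries held 50.9% of the control level, with a gap many times the spread of either group (log2 change -0.97 ± 0.05, adjusted p = 3.68e-12), and siMlx did not pass the test (-0.06, 0.300). After DXR the libraries were at 1140.0, 1110.0 and 1105 CPM with siControl, 972, 1006 and 924 CPM with siMlx, and 876, 846 and 881 CPM with siMondoA. There the siMondoA libraries held 77.6% of the control (-0.37 ± 0.05, 9.51e-06) and the siMlx libraries 86.5% (-0.21 ± 0.05, 0.00211). Within siMondoA cells PGAM1 rose with DXR by 0.66 ± 0.05 (1.11e-09). PGAM1 has 13 named pseudogenes in GENCODE 29, so reads shared with them make its level uncertain. The deposited counts list 1 of them, with 19 counts over all libraries against 343174 for PGAM1. Other genes of the pathway have such copies too, among them GAPDH with 62 named pseudogenes and LDHA with 6.

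ENO1, the ubiquitous enolase, had its largest changes with DXR. Its siControl libraries were at 2562, 2721 and 2827 CPM untreated and at 1514, 1611 and 1549 CPM with DXR (log2 change -0.80 ± 0.06, adjusted p = 9.24e-10). The falls with DXR were -0.81 ± 0.06 in siMondoA cells and -0.99 ± 0.06 in siMlx cells, so ENO1 was low in all 9 DXR libraries, with no overlap with the 9 untreated ones. These 3 falls rest on separate libraries. ENO2, the neuronal enolase, was at 98.9, 99.97 and 117 CPM in untreated siControl cells, 82.0, 79.3 and 93.4 CPM with siMlx and 62.4, 69.6 and 76.8 CPM with siMondoA. With DXR the values were 84.3, 98.1 and 85.9, then 57.7, 71.1 and 60.0, then 52.7, 64.2 and 49.1 CPM in the same order of siRNAs. Both siRNA groups lay below the control in both conditions. ENO2 overlaps the gene LRRC23 on the same strand, so reads that fit both make its level uncertain. The changes with siMondoA were -0.60 ± 0.10 (9.05e-05) and -0.69 ± 0.11 (7.05e-05), and those with siMlx -0.31 ± 0.10 (0.0176) and -0.51 ± 0.11 (0.00108). The untreated siMlx call was lost without replicate 3 of siControl (0.0992) or replicate 1 or 2 of siMlx (0.0593 and 0.0807). GAPDH fell with DXR in siControl cells (-0.25 ± 0.06, 0.000704) and did not pass the test with either siRNA, and PKM was called with siMlx in untreated cells alone of the 5 comparisons (-0.19 ± 0.05, 0.00461).

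Lactate dehydrogenase reduces pyruvate to lactate. LDHA, its muscle-type subunit (chr11:18394388-18408425, plus strand), was at 1891, 1956 and 1771 CPM in untreated siControl cells, 1179, 1349.9 and 1392 CPM with siMlx and 1751, 1727 and 1547 CPM with siMondoA. All siMlx libraries were below all others of that condition, and the siMondoA libraries lay between them and the control, the highest of them just under the lowest control library. With DXR the libraries were at 1746, 1706 and 1616 CPM with siControl, 1143, 1273 and 1122 CPM with siMlx and 1452, 1468 and 1339 CPM with siMondoA. The fall with siMlx was -0.52 ± 0.07 in both conditions (adjusted p = 4.89e-06 untreated and 1.18e-05 with DXR), and the interaction of siMlx with DXR was 0.00 (adjusted p = 1.0). With siMondoA the change was -0.16 (0.0676, and 0.0334 with the replicate number as a block) in untreated cells and -0.25 ± 0.07 (0.0123) with DXR, the latter lost without replicate 3 of siMondoA DXR (0.063). The untreated siMondoA change passed the test without replicate 3 of untreated siControl (-0.20, 0.0448). DXR in siControl cells gave -0.15 (0.0778), which also passed without that library (-0.19, 0.0489). LDHB, the heart-type subunit, rose with siMlx in untreated cells (0.21 ± 0.07, 0.011) and fell with DXR in siControl cells (-0.34 ± 0.07, 0.000214).

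LDHA is also the one gene of the list whose promoter holds 2 copies of CACGTG, the E-box hexamer that lies in the elements MondoA and Mlx bind. The window searched was that of the RefSeq promoter table on GRCh38.p14, from 250 bases before to 50 after the start of a gene, and 29 of the 33 genes matched it. CACGTG, which reads the same on both strands, was found in 4 of the 29 (13.8%; LDHA, GAPDH, PDHB and ALDOC) and in 7.43% of all 27305 promoters. The shorter ACGTG, searched on both strands and contained in CACGTG, was found in 11 of 29 (37.9%) and in 21.6% of all. The 27305 promoters were not limited to genes tested here, so the sets are unlike, and the differences in share were not tested. A pair of these hexamers at the spacing of a carbohydrate response element was in none of the 29 and in 2 of the 27305. Only exact copies of CACGTG were counted in the pair. An element that differs from it by a letter would not be found, so the absence of a pair says nothing on such elements. The LDHA and GAPDH stretches are shown because LDHA was called lower with siMlx and GAPDH was not (the difference between the genes was not tested), with capitals for the hexamer, on the plus strand of GRCh38.p14 at chr11:18394366-18394395, chr11:18394464-18394493 and chr12:6535171-6535200.
LDHA, upstream copy: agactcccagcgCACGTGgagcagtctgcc
LDHA, downstream copy: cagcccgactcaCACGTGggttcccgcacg
GAPDH: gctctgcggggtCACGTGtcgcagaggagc
LDHA was lower with siMlx in both conditions and GAPDH did not pass the test in either (-0.11, adjusted p = 0.128, and 0.00, 0.962). PDHB, another holder, was also called lower with siMlx in untreated cells (91.2 to 93.1 CPM against 101.8 to 109.2 CPM with siControl). That call was kept in all 13 alternative settings, and PDHB was not called with siMlx after DXR. The genes with the largest falls, PDK2, PFKFB2, PFKM and PGAM1, were not among the 4 with a CACGTG in this window. A match of letters is a description and no binding was measured.

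SLC16A1 (MCT1), which carries lactate across the membrane, was at 101, 97.7 and 87.9 CPM in untreated siControl cells, 117, 123 and 116 CPM with siMlx and 62.9, 59.2 and 52.7 CPM with siMondoA. The groups were apart on opposite sides of the control (log2 change 0.31 ± 0.07, adjusted p = 0.000941, with siMlx; -0.71 ± 0.07, 9.42e-08, with siMondoA). With DXR they were at 117, 104 and 110.3 CPM for siControl, 114, 106 and 100.03 CPM for siMlx and 85.7, 78.8 and 81.6 CPM for siMondoA. There siMondoA lay apart from the control (-0.43 ± 0.07, 0.000126), and siMlx overlapped it (-0.05, 0.627). SLC16A3 (MCT4), the more abundant lactate exporter by RPKM (168 against 21.0 in untreated siControl cells), did not pass the test with siMondoA in either condition (0.00 and 0.08).

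Pyruvate dehydrogenase kinases phosphorylate and switch off the complex. PDK2 (chr17:50094737-50112152, plus strand, overlapping SAMD14 on the other strand) was at 21.0, 22.8 and 22.6 CPM in untreated siControl cells, 7.13, 7.62 and 7.72 CPM with siMlx and 25.7, 25.0 and 24.7 CPM with siMondoA. DXR libraries were at 23.6, 25.1 and 22.1 CPM with siControl, 11.9, 12.2 and 12.2 CPM with siMlx, and 24.5, 24.8 and 20.5 CPM with siMondoA. The 6 siMlx libraries were the 6 lowest of the study. The fall with siMlx was -1.56 ± 0.08 (adjusted p = 1.10e-11) in untreated cells and -0.97 ± 0.08 (2.18e-08) with DXR, and within siMlx cells DXR raised PDK2 by 0.69 ± 0.09 (1.96e-06). With siMondoA the untreated change of 0.19 ± 0.08 just passed the test (0.0497) and was lost without any 1 of the 6 libraries (0.0612 to 0.176), with RLE scaling (0.0558), with no filter on low counts (0.236) and with DESeq2 (0.0882). After DXR it was -0.02 (0.883).

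PDK1, the hypoxia-induced kinase, took the other course. It was at 19.6, 19.2 and 20.4 CPM in untreated siControl cells and at 24.9, 23.7 and 27.2 CPM with siMlx, without overlap (0.36 ± 0.07, adjusted p = 0.000346). DXR raised it in siControl cells to 26.5, 25.7 and 30.2 CPM (0.48 ± 0.07, 9.85e-06), and the siMlx DXR libraries at 24.8, 25.1 and 25.4 CPM were close to their untreated level. PDP1, the phosphatase that reactivates the complex, was lower with siMondoA in untreated cells (57.4, 58.1 and 49.3 CPM against 44.5, 40.5 and 36.6 CPM; -0.44 ± 0.08, 0.000159) and with DXR (55.9, 59.1 and 56.1 CPM against 45.5, 44.4 and 46.5 CPM; -0.33 ± 0.08, 0.00498). With siMlx it was called in untreated cells (-0.27 ± 0.08, 0.00875), a call lost without replicate 2 of untreated siMlx (0.0604). Of the complex itself, DLAT was at 70.2, 72.4 and 75.1 CPM in untreated and at 51.7, 53.3 and 52.5 CPM in DXR-treated siControl cells (-0.47 ± 0.05, 5.39e-07), and it fell with DXR in the other siRNA groups too (-0.53 with siMondoA, -0.68 with siMlx). PGM1, which links glucose-6-phosphate to glycogen, rose with siMondoA (82.4, 88.5 and 74.7 CPM against 105, 100.2 and 90.7 CPM; 0.27 ± 0.07, 0.00316) and with DXR in siControl cells (0.30 ± 0.07, 0.00116).

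Because RPKM is scaled to gene length, it allows the make-up of each family to be described as shares of its summed RPKM. With 3 libraries a group, an exact permutation test of a share could not go below p = 0.10, so the shares carry no test. PDK2 made up 68.9% ± 1.09 (SD, n = 3) of the PDK family in untreated siControl cells and 37.0% ± 1.65 with siMlx, and PDK1 went from 31.0% ± 1.13 to 62.9% ± 1.65. The family's main member was thus PDK2 in one group and PDK1 in the other, with no overlap, while the summed PDK level went from 9.71 ± 0.377 to 6.23 ± 0.363 RPKM. With DXR the PDK2 share was 62.9% ± 3.48 for siControl and 48.7% ± 0.297 for siMlx. LDHA, in untreated cells, made up 54.2% ± 1.26 of the LDHA and LDHB sum with siControl and 41.6% ± 1.04 with siMlx, so that LDHB was the larger part with siMlx.

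PFKM was a minor part of phosphofructokinase throughout, at 7.52% ± 0.122 with siControl, 4.02% ± 0.118 with siMlx and 10.5% ± 0.168 with siMondoA in untreated cells. The larger shift in that family came with DXR: PFKP went from 71.4% ± 0.631 to 59.3% of the sum in siControl cells and PFKL from 21.0% ± 0.613 to 30.6% ± 0.813. SLC2A3 went from 11.5% ± 0.341 of the 2 transporters with siControl to 18.6% ± 1.11 with siMlx and 16.8% ± 0.983 with siMondoA in untreated cells. The summed transporter level was 251 ± 25.9 RPKM with siControl, 236 ± 18.3 with siMlx and 339 ± 27.1 with siMondoA. The higher SLC2A3 share with siMlx thus stood beside a sum that overlapped the control, and that with siMondoA beside a sum above it. ALDOA made up at least 99.9% of the aldolase sum on average in every group.

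**Figure D3:**
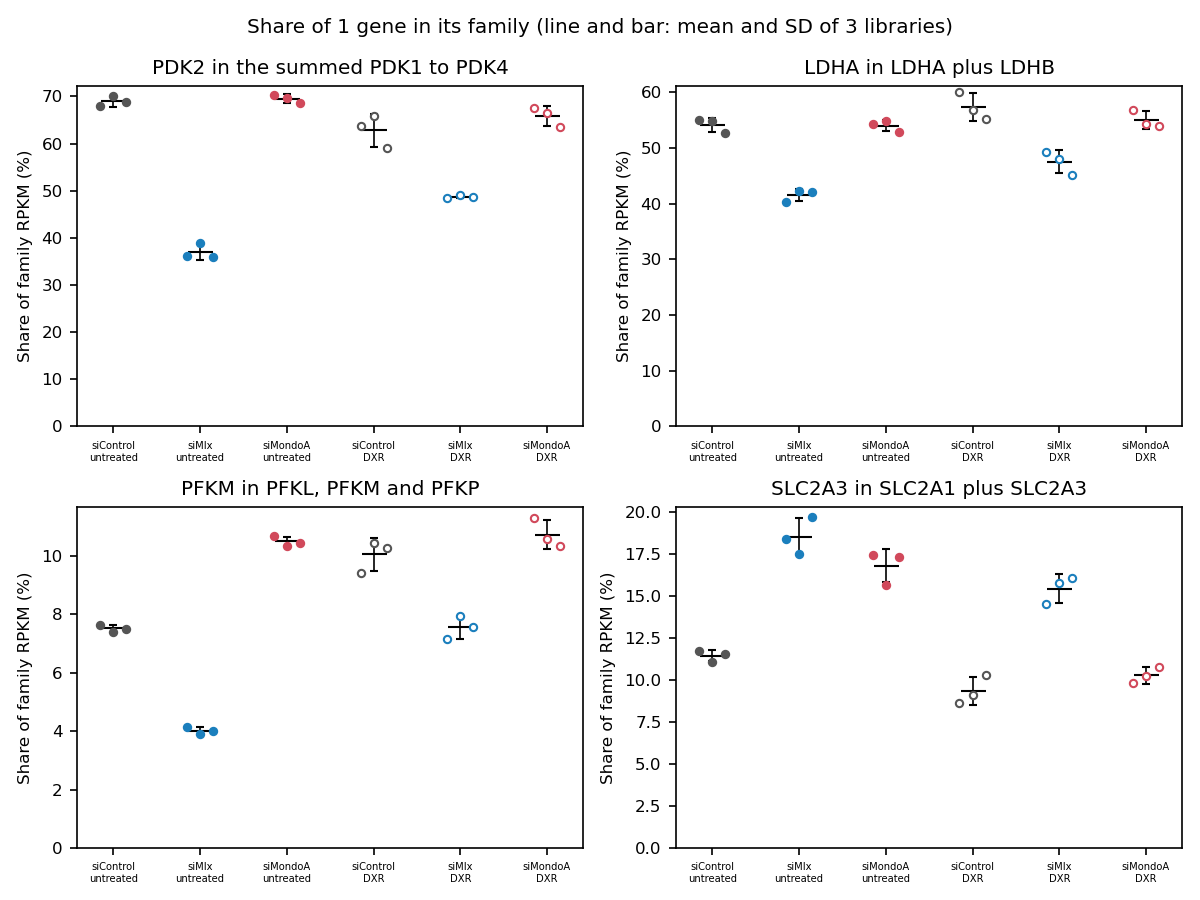
Share (%, linear axes from 0) of PDK2, LDHA, PFKM and SLC2A3 in the summed RPKM of their families in each library; filled points are untreated and open points DXR-treated, and lines with bars give the mean and SD of 3 libraries. The siMlx libraries are the lowest for PDK2 (37.0% on average in untreated cells) and LDHA (41.6%), and with SLC2A3 they are the highest in both conditions.

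The untreated and DXR comparisons of an siRNA share no library, so they can be set side by side. With siMondoA, 23 of the 30 genes had the same sign in both (76.7%, and 76.3% over all genes tested), and Pearson's r across the 30 genes was 0.77 (0.64 over all genes). The 7 genes called in both conditions all went the same way. With siMlx, 22 of 30 had the same sign (73.3%, and 75.2% over all genes), r was 0.62 (0.67 over all genes) and Spearman's rho 0.35. Of the 7 genes called in both, 5 went the same way and 2, HK2 and PFKFB4, were higher in untreated and lower in DXR-treated cells. Genes are not independent replicates, and these figures are descriptions. The share of genes with the same sign was near that of all genes. For genes called in both conditions, the share over all genes that went the same way was not computed.

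The interaction term tests whether an siRNA's effect differed between conditions. For siMlx, 4 of the 30 genes had a positive and 6 a negative interaction, against 12.2% of all genes called (6.43% positive, 5.81% negative). PFKFB2 (1.05 ± 0.20, adjusted p = 0.00151), PDK2 (0.59 ± 0.12, 0.00238) and PFKM (0.43 ± 0.07, 0.000587) had falls that were smaller with DXR. HK2 (-0.92 ± 0.14, 0.000164), PFKFB4 (-0.74 ± 0.12, 0.000457), PFKFB3 (-0.50 ± 0.11, 0.00568) and PDK1 (-0.48 ± 0.10, 0.00319) had been raised by siMlx in untreated cells and were not raised with DXR. For siMondoA, 1 gene had a positive and 3 a negative interaction, against 10.1% of all genes called (5.84% positive, 4.28% negative). Of those called, 57.7% were positive, and 45.4% with upper-quartile scaling. PGAM1 fell less with DXR (0.61 ± 0.07, 1.43e-05), and the rises of SLC2A3 (-0.65 ± 0.09, 0.000169) and PFKM (-0.35 ± 0.07, 0.00331) were smaller. Without replicate 3 of untreated siControl or replicate 2 of siControl DXR, 2 genes had a positive siMondoA interaction.

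**Figure D4:**
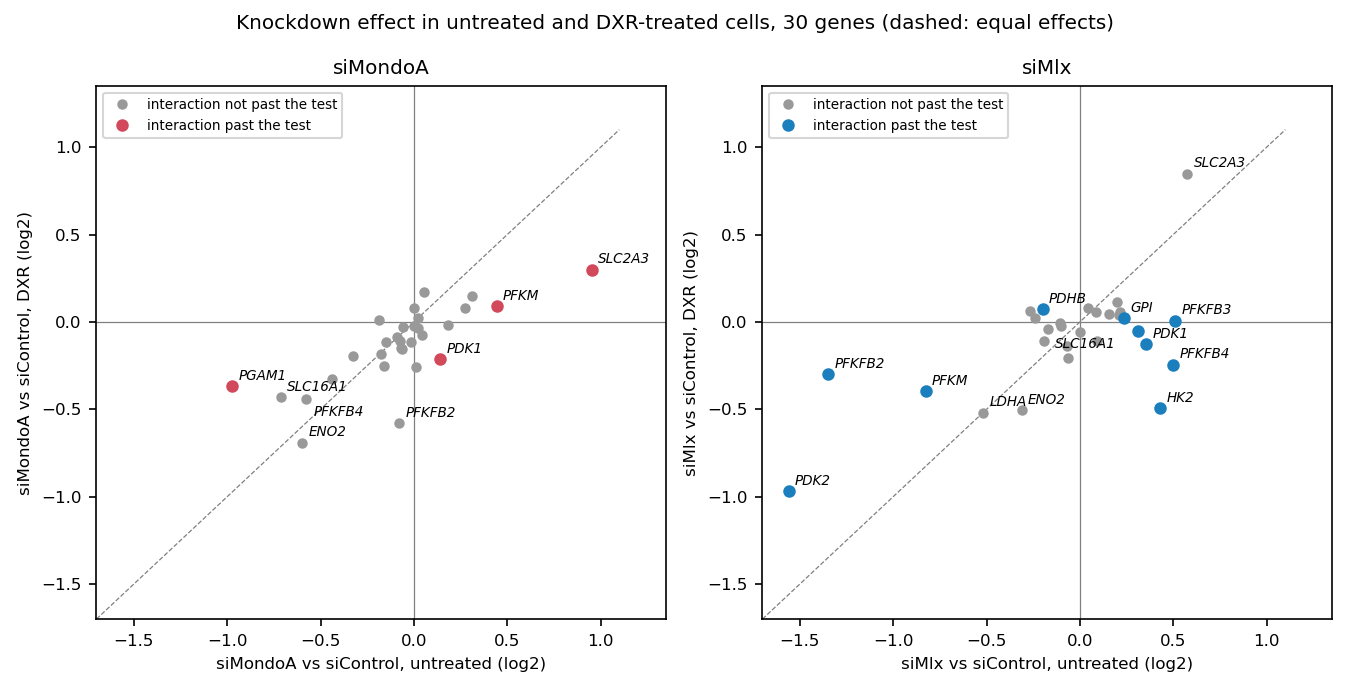
Log2 change by siMondoA (left) and siMlx (right) against siControl in untreated cells (x) and in DXR-treated cells (y), 1 point for each of the 30 tested genes; coloured points passed the interaction test and the dashed line marks equal effects. With siMlx, HK2 and PFKFB4 lie in the lower right quadrant, and PDK2, PFKFB2 and PFKM lie above the line on the left.

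The siRNA groups were also compared directly, without the control. In untreated cells 9 genes were higher and 15 lower with siMondoA than with siMlx, against 58.9% of all genes called (28.5% higher, 30.4% lower). PDK2 (log2 difference 1.75 ± 0.09, adjusted p = 1.34e-12), PFKM (1.27 ± 0.05, 1.08e-13) and PFKFB2 (1.27 ± 0.15, 6.92e-07) were higher with siMondoA. PFKFB4 (-1.08 ± 0.09, 2.86e-09), SLC16A1 (-1.02 ± 0.07, 2.40e-10) and PGAM1 (-0.91 ± 0.05, 3.52e-12) were lower. With DXR 4 were higher and 9 lower, against 39% of all genes called (18.9% higher, 20% lower), led by PDK2 (0.95 ± 0.08, 1.62e-08). In DXR against untreated, siMondoA cells had 6 genes higher and 14 lower (54.2% of all genes called, 26.2% higher and 28% lower). For siMlx cells the counts were 9 higher and 12 lower (62.1% of all genes called, 30.9% higher and 31.2% lower).

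Other genes of the pathway were read from a list of 55, of which 39 were tested. With siMondoA in untreated cells 12 rose and 8 fell (51.3% called, 46.6% of all genes), among them GBE1, the glycogen branching enzyme (-0.89 ± 0.05, adjusted p = 2.29e-11), and PYGL, liver glycogen phosphorylase (0.62 ± 0.07, 5.77e-07). GBE1 fell with DXR as well (-0.74 ± 0.05, 1.30e-09), where 7 rose and 7 fell (35.9%, against 24.8% of all genes). With siMlx in untreated cells 9 rose and 14 fell (59%, against 47.9% of all genes), among them the transporter SLC2A12 (-1.84 ± 0.13, 8.94e-10) and the phosphatase PDP2 (-0.83 ± 0.06, 2.00e-09). With siMlx and DXR 4 rose and 11 fell (38.5%, against 30.2%), and both were again lower (-1.46 and -0.74). With DXR in siControl cells 11 rose and 16 fell (69.2%, against 56.7%). TIGAR, a p53 target that lowers fructose 2,6-bisphosphate, rose by 1.80 ± 0.09 (1.31e-11) and PYGL by 0.98 ± 0.07 (1.07e-09). TIGAR also rose with siMlx in untreated cells (0.90 ± 0.09, 1.12e-07).

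An siRNA can also lower transcripts whose 3′ UTR pairs with its seed, and the sources used here do not give the siRNA sequences. The longest 3′ UTR of a protein-coding transcript in GENCODE 29 (GRCh38) was therefore read for 11795 tested genes, on the transcript strand. For each siRNA, 3 words of 7 letters were picked whose holders had lower log2 changes in untreated cells than other genes, after allowing for UTR length. The words were not ranked by the size of that difference alone, so they need not be those with the deepest falls. For siMondoA the first was TCCAGTA, held by 10.3% of the genes. The word ranked next was ATCCAGT, held by 11.2%, and then came TTCCAGT, held by 18.8%, so that all 3 overlap. For siMlx the first was AATGAGA, held by 18.8%. The overlapping word ATGAGAA came next, held by 20.4% (mean log2 difference -0.154), and then CTGGTCA, held by 12.1% (-0.180). The words were picked on these same changes, so the following counts are a description. Of genes that hold at least 1 of the siMondoA words 36.4% were called lower, and of the others 20.6%. For siMlx the shares were 36.9% and 17.9%.

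Over all genes read, 3376 of 11795 hold a siMondoA word and 4102 a siMlx word. Among the 30 tested genes of the pathway, 7 hold a siMondoA word, and 2 of the 8 genes called lower are among them (PGAM1 and PDP1). The other 5 holders were not called lower with siMondoA. A siMlx word is held by 8 genes, and 5 of the 9 called lower are among them (PDK2, PFKFB2, PFKM, SLC2A1 and PDP1). The sites in the genes with the largest falls are shown with the word in capitals, all from genes on the plus strand, at chr10:97432958-97432980, chr17:50111045-50111067, chr1:207074922-207074944 and chr12:48146085-48146107 of GRCh38.
PGAM1, siMondoA word: tctagtcaTTCCAGTggaagacg
PDK2, siMlx word: ggagactgAATGAGActggcctg
PFKFB2, siMlx word: agtgtgagAATGAGAtatggttg
PFKM, siMlx word: aatgccaaCTGGTCActgtgctt
LDHA holds no siMlx word and was lower with siMlx, and SLC16A1 and ENO2 hold no siMondoA word and were lower with siMondoA. PFKFB3 and PDK1 hold a siMlx word and were higher with siMlx in untreated cells. PFKFB2 holds all 3 siMondoA words and did not pass the test with siMondoA in untreated cells. SLC2A1 holds 1 siMondoA word and was higher there. The part of these words in the falls was not tested.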

How the data were processed

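The authors deposited 1 table of read counts per gene and 1 of RPKM for 18 libraries. Reads passed through bcl2fastq and TopHat2 2.1.1 on GRCh38, per the submitters' processing notes. How reads were counted (program, annotation, strand) is not given in the sources used here, so genes that overlap another gene or have near-identical copies are uncertain. Each deposited RPKM was checked against its count: the implied length was whole to within 0.0179 bases for 24846 genes. The count model was edgeR 4.0.16 under R 4.3.3: filterByExpr by group (13676 genes tested), TMM scaling and 1 quasi-likelihood fit of 6 group means (12 residual degrees of freedom, biological coefficient of variation 7.42%). Tests were two-sided with Benjamini-Hochberg adjustment over all genes tested and a threshold of 0.05. On simulated data for siMondoA against siControl in untreated cells (13676 genes), 64% of genes changed 1.5-fold and 83% of those changed 2-fold were recovered, and 0.0965% of unchanged genes were called. Only 200 genes were changed in the simulation, while 46.6% of genes were called in this comparison of the data. These rates may therefore not carry over to the data. Floors cover counting error only. Replicate numbers come from the library titles. Deviations from the group means of same-numbered libraries correlated above 0.1 in every pair in 4 of the 9 comparisons of 2 groups, namely siMondoA against siControl untreated (r = 0.101 to 0.33) and the 3 comparisons among DXR groups (0.167 to 0.277). These were taken as paired, and the block's p is given where it changed a call.

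The 33 genes, the companion list and the marker lists were chosen with earlier results of these data known. All 33 genes are accounted for. Values are given for SLC2A1, HK2, PFKFB3, LDHA and PDK4 and, in each of the 5 main comparisons, for up to 6 genes in each direction with the largest called change. The companion list is represented by up to 4 genes per main comparison with the smallest p. Other genes named (HK1, PDK3, ALDOC, GAPDH, PKM, SLC16A3 and family members in shares) were added after their values were seen, as were the 3′ UTR words and the choice of sequences. Positions are from GENCODE 29 on GRCh38, promoters from RefSeq on GRCh38.p14. Alternatives were upper-quartile and RLE scaling, a filter of 1 CPM in 3 libraries or none, the groups of a contrast alone, a replicate block, DESeq2 1.42.0, and leaving out each library.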

Additional observations from a re-analysis of the deposited data

Results flagged for a closer look

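The effect of siMlx on 10 of the 30 genes differed between untreated and DXR-treated cells by the interaction term in edgeR (log2 difference of the 2 effects). The values were 1.05 for PFKFB2 (adjusted p = 0.00151), 0.59 for PDK2 (0.00238), 0.43 for PFKM (0.000587) and 0.28 for PDHB (0.0307). On the negative side they were -0.92 for HK2 (0.000164), -0.74 for PFKFB4 (0.000457), -0.50 for PFKFB3 (0.00568), -0.48 for PDK1 (0.00319), -0.36 for SLC16A1 (0.0191) and -0.22 for GPI (0.0423). The PDHB call was lost in 7 of 19 alternatives, the SLC16A1 call in 3 and the GPI call in 13. For PDHB these were the fits without replicate 1 or 2 of untreated siControl, 2 or 3 of untreated siMlx, 1 or 2 of siControl DXR, or 3 of siMlx DXR (adjusted p from 0.0535 to 0.0798). For GPI they were the fits without any untreated siControl or siControl DXR library, replicate 2 of untreated siMlx, or replicate 1 or 3 of siMlx DXR, and 4 other settings (0.0533 to 0.24). For SLC16A1 they were those without replicate 2 of untreated siMlx (adjusted p = 0.0548), replicate 1 of siControl DXR (0.0562) or replicate 3 of siMlx DXR (0.0548).

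The effect of siMondoA differed between conditions for 4 genes: 0.61 for PGAM1 (edgeR adjusted p = 1.43e-05), -0.65 for SLC2A3 (0.000169), -0.35 for PFKM (0.00331) and -0.35 for PDK1 (0.0312). The PDK1 call was lost in 10 of 19 alternatives, with adjusted p from 0.0533 to 0.128, among them the fits without replicate 1 or 2 of untreated siControl, any untreated siMondoA library, replicate 3 of siControl DXR, or replicate 1 or 3 of siMondoA DXR. The other 3 were kept in all of them.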

How the results depend on the processing

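Among the calls of the 30 genes in the 5 main comparisons, those kept under all 13 alternatives numbered 10 of 13 for siMondoA untreated, 14 of 21 for siMlx untreated, 17 of 20 for DXR with siControl, 7 of 14 for siMondoA with DXR and 7 of 8 for siMlx with DXR, and none changed sign. The number higher for siMondoA with DXR (2) was 1 with no filter on low counts and 1 with the 2 groups fitted alone, and ranged from 1 to 2 over leaving out each library. The number lower there (12) ranged from 7 to 11. The number lower for siMondoA against siMlx with DXR (9) was 4 with those groups alone. The positive siMondoA interactions (1) were 2 with no filter and 2 with DESeq2, and ranged from 1 to 2 over leaving out each library, and the positive siMlx interactions (4) were 7 with no filter. With no filter all 33 genes entered the fit, so those numbers are out of 33 and not 30. Shares taken from CPM in place of RPKM gave a change of -29.9 percentage points for PDK2 (-31.9 from RPKM) and -4.58 for PFKM (-3.5), which follows from weighting by length. Upper-quartile scaling turned the split of all called siMondoA interactions from 57.7% to 45.4% higher and that of siMlx with DXR from 46.2% to 56.2%, and moved siMondoA untreated from 50% to 57.5% and siMlx untreated from 52% to 58%. The cause of the other differences was not tested.

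In the 4 comparisons whose libraries were paired by number, the replicate block lost none of the calls of the 30 genes and added 6: LDHA and LDHB lower with siMondoA untreated (-0.16, adjusted p = 0.0334, and -0.15, 0.0273), PFKFB2 and PGK1 lower with siMlx and DXR (-0.30, 0.047, and -0.14, 0.0332), and PDHA1 and PKM higher with siMondoA than with siMlx after DXR (0.13, 0.0444, and 0.13, 0.0154). In the other 5 comparisons not every pair of same-numbered libraries correlated above 0.1, so they were not taken as paired. For siMlx against siControl untreated r ran from 0.052 to 0.245. The block added calls there too, among them PGM1 lower with siMlx untreated (-0.17, edgeR adjusted p = 0.0183). ENO2 and PKM were lower with DXR in siControl cells under it (-0.24, 0.0292, and -0.12, 0.0204). With the replicate number as a block, 3 genes had a positive siMondoA interaction and 7 a positive siMlx interaction. LDHA with DXR in siControl cells was -0.15 under the block (adjusted p = 0.0423).

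Changes near 0 that turned sign were all far from the threshold. PFKFB3 with siMondoA in untreated cells was -0.0067 with no filter and ran from -0.0776 to 0.0837 over leaving out each library (below 0 without replicate 2 or 3 of untreated siControl or replicate 2 of untreated siMondoA). SLC2A1 with DXR in siControl cells ran from -0.1214 to 0.0394 (above 0 without replicate 2 of untreated siControl), and with siMlx and DXR from -0.008 to 0.035 (below 0 without replicate 3 of siControl DXR). PFKFB3 with siMlx and DXR ran from -0.0034 to 0.0373 (below 0 without replicate 1 of siControl DXR or of siMlx DXR). LDHA gained a call with no filter in siMondoA untreated and in DXR with siControl (adjusted p = 0.0182 and 0.0134). Depth limits ALDOC, PDK3 and PDK4, which did not pass the filter on low counts and were not tested in the main fit. The 3 libraries a group limit changes of small size.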
